A study of Mus with 5 samples.

Results

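Interferon-stimulated genes are the antiviral, antigen-processing and signalling genes that cells switch on when interferon binds its receptor. A list of 40 such mouse genes was followed through 4 lists of ChIP-seq peaks, which cover RARα and BATF in cells given retinoic acid (RA) or none. A peak was taken as a member's peak when the authors' annotation named that gene among the genes of the peak, and each peak was counted once. The 40 genes are among 21902 genes considered in all, which are the protein-coding genes of a RefSeq table plus Mx1 and Mx2, listed there as transcribed pseudogenes. They had 61 of the 15812 BATF control peaks, 33 of the 9899 BATF peaks with RA, 3 of the 1172 peaks of RARα in the control and 1 of its 597 peaks with RA. No peak of any list named 9 of the 40.

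Interferon receptors signal through JAK kinases, and transcription factors that include IRF family members then bind the response elements of these genes. BATF is an AP-1 family factor of activated T cells that binds DNA with JUN proteins and, at composite elements, with IRF4 or IRF8. RARα is the nuclear receptor for RA and binds DNA with or without its ligand. ChIP-seq recovers the DNA fragments held by a protein, and a peak is a place where such fragments pile up over a control precipitation.

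The cells were CD8 T cells from the spleen of WT mice, stimulated through CD3 and CD28 in the presence of IL-2 for 24 h and rested for 24 h in IL-2 at 100 U/ml. For the last 1 h they received 50 nM RA or were left without it (control), and chromatin was precipitated with anti-RARα, anti-BATF or normal rabbit IgG. The sample labels call the cells naive and name a different interleukin for each treatment, do not give the age of the mice, and do not state whether the IgG cells had received RA. Each list was called on 2 pooled ChIP files against the same IgG file, so there is 1 list per condition and no spread between replicates. No test between conditions was therefore made. Intervals given with ratios of fragments cover counting error within 1 pool each and test no effect of RA, and fewer cells with a bound site cannot be told apart from weaker binding in each cell.

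The pools held 22655611 (RARα control), 22475060 (RARα with RA), 23110180 (BATF control) and 16424269 (BATF with RA) fragments, and the BATF pool with RA was the smallest. The fold enrichment given below is the authors' ratio of the fragments at the summit, as scaled by the peak caller, plus 1 to the local IgG level plus 1. Peak lists hold no expression, so the cell label could not be checked by markers. The annotation named Cd8a for 16 BATF control peaks, Cd8b1 for 20, Cd3e for 1 and Cd4 for none. These counts do not test the cell label.

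BATF peaks were assigned to most interferon-stimulated genes. In the control list 31 of the 40 genes had at least 1 peak (77.5%, Wilson 95% confidence interval 62.5 to 87.7), beside 48.6% of all genes. With RA, 24 of the 40 had one (60%, 44.6 to 73.7), beside 38.2% of all genes. The intervals cover counting error only. All genes include those that T cells do not use, and expression was not measured here, so the members' share was not compared with genes of the same activity.

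**Figure D1:**
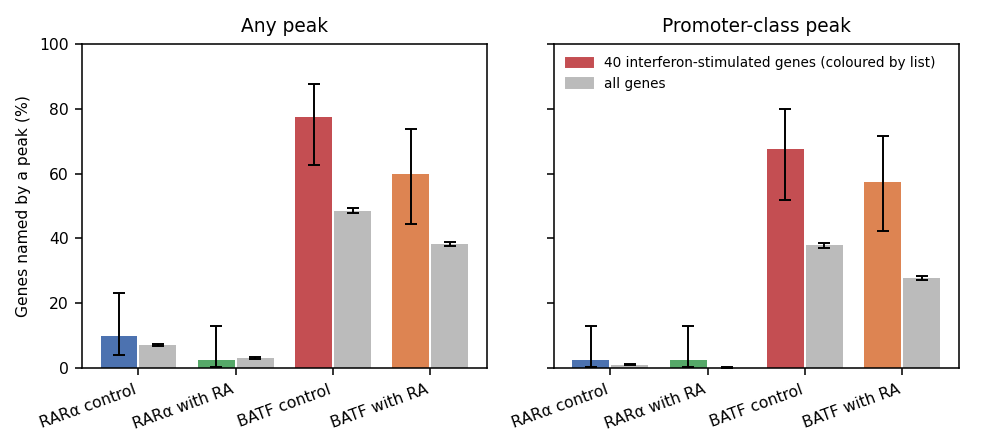
Share of genes (%) named by at least 1 peak of any class (left) or of the promoter class (right) in each list, for the 40 interferon-stimulated genes (coloured) and all 21902 genes (grey). Bars are shares and lines are Wilson 95% intervals. The members' bars stand above the grey bars in both BATF lists (77.5% against 48.6% in the control), while in the RARα lists the members' intervals include the shares of all genes, except at promoters with RA, where 1 member was called.

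At promoters the pattern was similar. A BATF peak of the promoter class was assigned to 27 members in the control (67.5%, 52.0 to 79.9) and to 23 with RA (57.5%, 42.2 to 71.5). Among all genes the shares were 37.9% and 27.7%. For RARα the promoter class held 1 member in each list, beside 1.04% and 0.219% of all genes. When any peak within 10 kb of a gene was counted, whichever gene it named, BATF reached 30 members in the control, beside 48.5% of all genes, and 24 with RA, beside 38.6%. By that count RARα reached 1 member in the control, beside 3.99%, and 1 with RA, beside 1.46%. Of the 61 member peaks in the control, 39 were classed as promoter (63.9%), 12 as intergenic, 7 as intron and 3 as exon. Their median fold enrichment was 5.06 (quartiles 4.09 and 6.46), beside 5.40 over the whole list. The members' peaks were thus no stronger than the typical BATF peak, although more of the genes had one. Of the 61 peaks, 45 touched a member gene, and 11 lay more than 10 kb from every member they named.

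**Figure D2:**
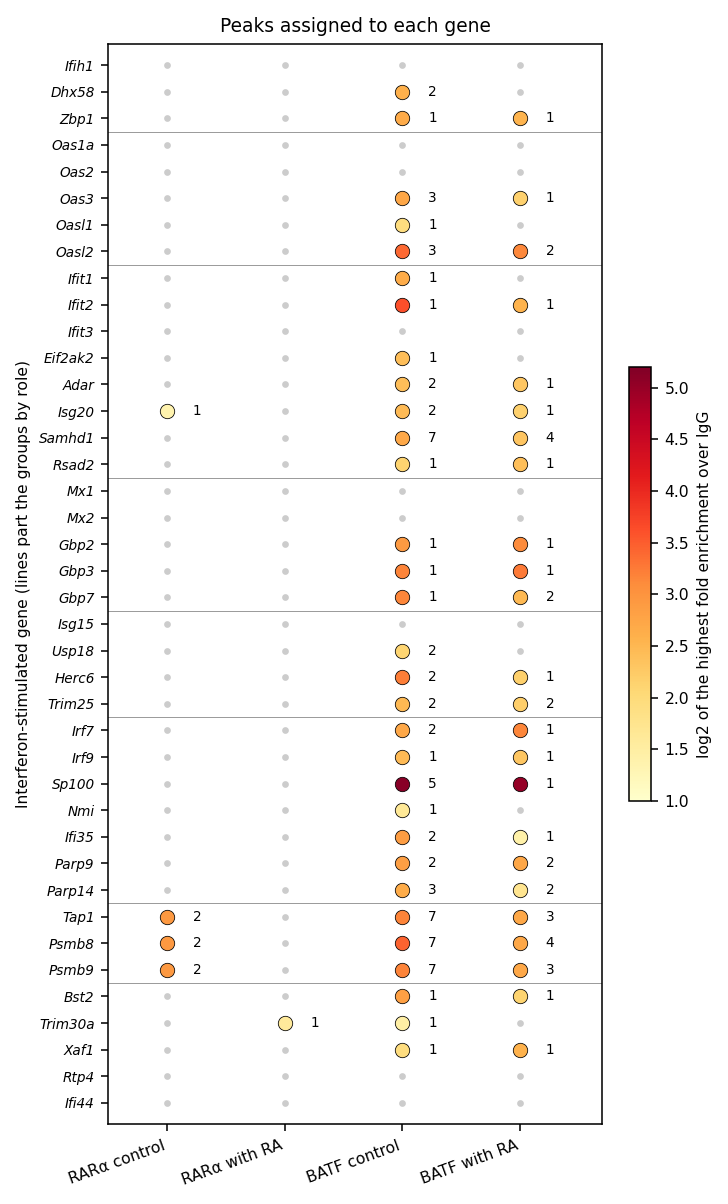
Number of peaks assigned to each of the 40 genes in each list (numerals), grouped by role. The colour of a point is the log2 of the highest fold enrichment at that gene, and small grey points mark genes with no peak. Points fill 31 genes in the BATF control column and 24 in the BATF column with RA, but 4 and 1 in the RARα columns, and Sp100 has the darkest points.

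Among the sensors of foreign nucleic acid, Zbp1, a receptor for Z-form nucleic acid that can start cell death, had 1 promoter peak in both BATF lists. It lay on chromosome 2 of mm10, from 173218197 to 173219435 in the control, with 51 fragments at the summit and a fold of 6.42. With RA it had 26 fragments and a fold of 5.87. Dhx58 (LGP2), which modulates RNA sensing by RIG-I and MDA5, had 2 control peaks and no RA peak. Ifih1 (MDA5 itself) had no peak in any list, and the nearest BATF control peak lay 131718 bp away.

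Of the oligoadenylate synthetase genes, whose products make the messenger that activates RNase L, Oas3 had 3 BATF control peaks and Oas1a and Oas2 had none. The 3 genes lie in 1 cluster on chromosome 5. The tallest Oas3 peak, from 120775560 to 120776130, had 84 fragments, but it lay in an LTR repeat where the IgG level was 12.0, beside a median of 4.56 over the list. Its fold of 6.46 was therefore close to the 6.62 of the peak at the start of the gene, from 120777048 to 120778088, which had 33 fragments over an IgG level of 4.08. With RA the second site was called again, with 16 fragments and a fold of 4.44, but the repeat was not. Oasl2, a relative that carries ubiquitin-like domains, had one of the strongest promoter peaks of the members. It spanned 114896817 to 114897848 in exon 1, with 42 fragments and a fold of 10.6 in the control. With RA it had 27 fragments and a fold of 8.84, and both summits were 7 bp apart. Oasl1 was named once, for a peak of fold 3.84 that lay 96599 bp from it.

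The effectors that act on RNA and nucleotides had 15 BATF control peaks over 7 of their 8 genes, beside 48.6% of all genes with a peak. Samhd1, which breaks down deoxynucleotides, held 7 of them, more than any other gene of this group. They ran from 157121501 to 157138474 on chromosome 2 with folds from 3.95 to 6.59, and 4 peaks were called there with RA. Ifit2, whose product binds RNA, had the second highest fold of all members. Its promoter peak, on chromosome 19 from 34550547 to 34551271, had 47 fragments at the summit and a fold of 12.3 in the control, and 17 fragments and 5.95 with RA. Ifit1, in the same cluster, had a promoter peak of fold 6.33 in the control and none with RA. That peak lay 30 bp from Ifit1 and also named Ifit1bl2, which it overlaps. Ifit3, between Ifit2 and Ifit1, had no BATF peak in either list.

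Adar, which edits double-stranded RNA, had 2 control peaks and 1 with RA. Rsad2 (viperin) was singled out after its values were seen, because its peaks lay in different places. In the control its single BATF peak was intergenic, 24311 bp from the gene, with 16 fragments. In the RA list its peak lay at the start of the gene, on chromosome 12 from 26456276 to 26456564, with 15 fragments at the summit and a fold of 5.29. No control peak lay within 37844 bp of it. At 15 fragments in 1 pool this difference has no replicate check.

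**Figure D3:**
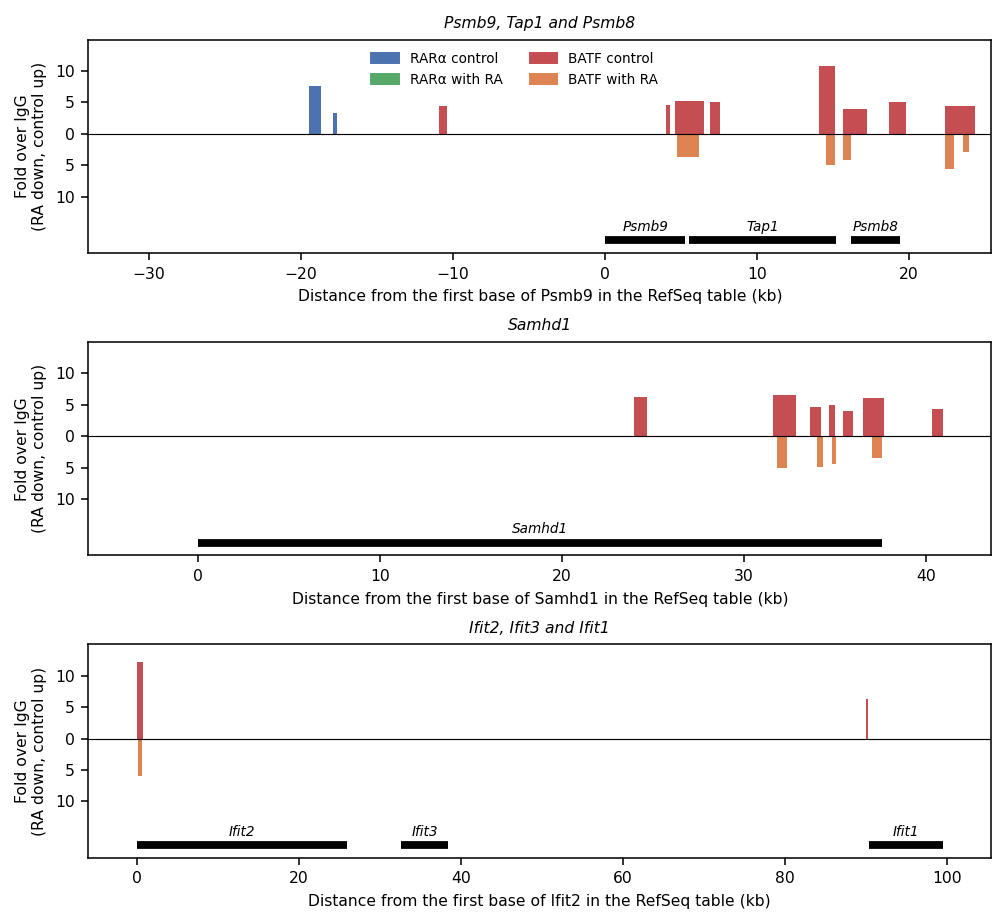
Peaks around 3 groups of members, by distance (kb) from the first base of the first gene in the RefSeq table. Bar width is the peak's length, bar height its fold enrichment over IgG (control lists upward, RA lists downward), black lines are genes, and peaks are drawn whichever gene was named. BATF bars stand on Psmb9, Tap1 and Psmb8, on one end of Samhd1 and at Ifit2, while the RARα bars (up to 7.64) lie left of Psmb9 with no RARα bar below them.

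The guanylate-binding proteins are GTPases that coat and break open the vacuoles of intracellular microbes. Gbp2, Gbp3 and Gbp7 lie in 1 cluster on chromosome 3, and each had a BATF promoter peak in both lists. At Gbp3 the fold was 9.05 in the control (54 fragments, from 142559766 to 142561052) and 9.57 with RA (43 fragments). At Gbp2 it was 7.53 (60 fragments, from 142619513 to 142620957) and 8.65 (45 fragments). Both folds were higher in the RA list. At the promoter of Gbp7 it was 8.89 (35 fragments) and 5.29 (15 fragments), and a second peak in the gene, of fold 5.62, was called with RA 1586 bp from the control peak. The antiviral GTPase genes Mx1 and Mx2 had no peak in any list.

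In the ISG15 system, which tags proteins with a ubiquitin-like modifier, Isg15 itself was named by no peak. A BATF control peak did lie 2708 bp from it and was assigned to its neighbour AW011738. Herc6, the ligase that attaches ISG15 in the mouse, had a promoter peak on chromosome 6 from 57580999 to 57581437. It had 38 fragments and a fold of 9.36 in the control, against 14 fragments and 4.5 with RA. Trim25, a ubiquitin ligase of the RIG-I pathway, had 2 promoter peaks in both lists. Usp18, the protease that removes ISG15 and restrains the interferon receptor, had 2 control peaks and none with RA.

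All 7 members that act in transcription and signalling had a BATF control peak, beside 48.6% of all genes, and roles were not compared with each other. Irf7, which drives the second wave of interferon production, had 2 promoter peaks in the control. The stronger one, on chromosome 7 from 141265892 to 141266517 in intron 1, had 39 fragments and a fold of 6.59. With RA a single peak at that place had 26 fragments and a fold of 8.92. The higher fold went with an IgG level at the summit of 2.03 with RA against 5.00 in the control. Irf9, a DNA-binding factor of the interferon response, had folds of 5.56 and 4.93.

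The strongest BATF site named for any member was assigned to Sp100, a component of nuclear bodies. It lay on chromosome 1 from 85739231 to 85740392, with 136 fragments at the summit and a fold of 35.0 in the control and 97 fragments and 32.4 with RA. It ranked 46 of 15812 and 44 of 9899 by fold. The site is intergenic, was annotated with 6 genes, and lay 29233 bp from Sp100 and 2575 bp from A630001G21Rik. The 4 other Sp100 peaks of the control list lay in its introns with folds from 2.96 to 4.15, and none of these was called with RA. Parp9 and its neighbour Parp14 on chromosome 16 encode ADP-ribosyltransferase family proteins. The promoter peak of Parp9 had folds of 7.16 and 6.61.

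The antigen-presentation genes Psmb9, Tap1 and Psmb8 encode immunoproteasome subunits and the peptide transporter, and lie next to each other on chromosome 17. They shared 10 BATF control peaks and 5 with RA. A peak from 34186628 to 34188524 covered the start of both Tap1 and Psmb9, with 36 fragments and a fold of 5.22 in the control and 24 fragments and 3.7 with RA. The strongest peak named for Psmb8, from 34196097 to 34197182, lay over the last exon of Tap1, with 43 fragments and a fold of 10.9. With RA it had 18 fragments and a fold of 4.90, at a summit 20 bp away. The fold of 9.07 at another site, from 34101456 to 34102031, belongs to a peak annotated with 16 genes, 79999 bp from the nearest of the 3.

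Among the other antiviral genes, Bst2 (tetherin), which holds budding virions at the cell surface, had a promoter peak on chromosome 8 from 71536889 to 71537906. Its fold was 7.11 in the control (35 fragments) and 4.38 with RA (16 fragments). Xaf1, a gene linked to cell death, had 14 fragments and a fold of 3.84 in the control and 18 fragments and 6.01 with RA. Rtp4 and Ifi44 had no peak in any list.

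The next comparison was between BATF binding with and without RA. Of the 31 members with a BATF peak, 20 had fewer peaks with RA, 10 had as many and 1 (Gbp7) had more. Among all genes with a BATF peak in either list, 54.3% had fewer and 6.77% had more. Of the 61 control peaks, 42 had an RA peak within 5 kb (68.9%, 56.4 to 79.1), beside 69.9% of all BATF control peaks. The members' sites were thus kept about as often as BATF sites in general. By class, 32 of the 39 promoter peaks were kept (82.1%, 67.3 to 91.0), beside 74.3% of all promoter peaks, and 2 of the 7 intron peaks (28.6%, 8.22 to 64.1), beside 64.5%. The 7 intron peaks had a median fold of 4.09, beside 5.19 for all intron peaks. Of the 7, 4 lay in Sp100, so they are not independent and the interval is too narrow. Of the 33 RA peaks, 31 had a control peak within 5 kb, beside 96.3% of all. The other two were the promoter peak of Rsad2 and an intergenic peak 48666 bp from Psmb8 that named 12 genes.

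Over the 42 pairs the control peaks had a median fold of 5.58 (quartiles 4.52 and 7.15) and the RA peaks one of 4.5 (4.14 and 6.0). A lower fold with RA was seen in 30 pairs (71.4%, 56.4 to 82.8), beside 66.9% of all 11048 BATF pairs. When the constant of 1 that the peak caller adds was left out, the members' share was 59.5%. No such value is given for all pairs. The median of the RA to control ratio was 0.853 for the members and 0.868 for all pairs. Divided by the size of the pool instead, the fragments at the summit gave median ratios of 0.892 and 0.885, and were lower with RA in 28 of the 42 pairs, beside 66.5% of all. The members' ratios of fold and of fragments both lay close to those of all BATF sites. Some pairs share a peak, since 30 different RA peaks took part. At the 30 pairs whose peaks overlap, the summits were a median of 95.5 bp apart.

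**Figure D4:**
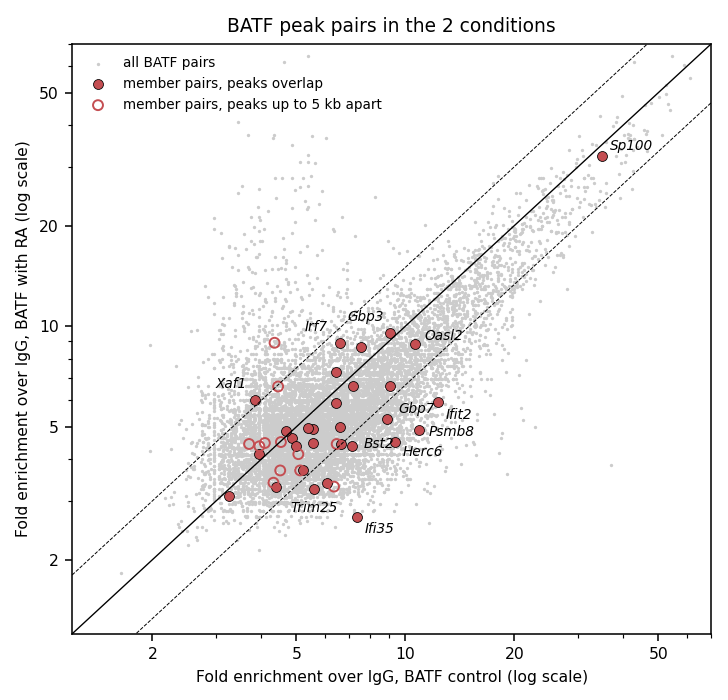
Fold enrichment over IgG at pairs of BATF peaks without RA (x axis) and with RA (y axis), both on log scales. Grey points are all 11048 pairs, filled red points the 30 member pairs whose peaks overlap and open points the 12 whose peaks are up to 5 kb apart. The solid line marks equal folds and the dashed lines a difference of 1.5 times, and 9 member pairs lie below the lower dashed line and 2 above the upper one.

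A fold lower with RA by 1.5 times or more was found at 9 of the 42 member pairs, beside 19.3% of all pairs. These were at Ifi35, Psmb8, Ifit2, Herc6, Parp14, Samhd1, Trim25, Gbp7 and Bst2, and all were of the promoter class. That class held 32 of the 42 member pairs, and 1617 of all 6902 promoter pairs were lower by this limit. The largest difference was at Ifi35, an interferon-induced partner of Nmi, on chromosome 11 from 101447966 to 101449317. Its fold was 7.34 (51 fragments) in the control and 2.68 (21 fragments) with RA, where the IgG level at the summit was 7.2. Divided by the size of the pool, its fragments gave a ratio of RA to control of 0.579, with an exact interval for counting error of 0.331 to 0.980. The same ratio was 0.509 (0.274 to 0.903) at Ifit2 and 0.518 (0.259 to 0.979) at Herc6. At Psmb8 it was 0.589 (0.320 to 1.04), at Trim25 0.597 (0.295 to 1.15), at Gbp7 0.603 (0.306 to 1.13) and at Bst2 0.643 (0.332 to 1.19). These pairs were picked for their lower fold, so their ratios are a description, and the spread between replicates is unknown for all 9. At Samhd1 and Parp14 the ratios were 0.794 (0.448 to 1.37) and 0.782 (0.387 to 1.52), and the paired Parp14 peaks lay 1676 bp apart. The RA peak of Parp14 overlaps its other control peak, where the folds were 4.38 in the control and 3.31 with RA. For that overlapping pair the difference was 1.32 times, short of the limit.

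A fold higher with RA by 1.5 times or more was found at 2 member pairs, beside 7.55% of all pairs. At Xaf1 the ratio of fragments, each divided by its pool, was 1.81 (0.850 to 3.93). At Irf7 it was 2.29 (1.18 to 4.56), but this pair joined the weaker control peak to an RA peak 291 bp away that also overlaps the stronger one. For the overlapping Irf7 pair the ratio was 0.938 (0.548 to 1.58).

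At 7 members a BATF peak was assigned in the control and none with RA, and at no member was it the other way round. Among all genes with a control peak, 23.5% had none with RA. The 7 were Dhx58, Eif2ak2, Ifit1, Nmi, Oasl1, Trim30a and Usp18. As a description of how far each control peak lay from the cutoff, its counts and IgG level were multiplied by the ratio of the pool sizes and the p-value was recomputed. The strongest peaks of Nmi, Oasl1 and Trim30a then lay short of the BATF cutoff, with a -log10 p of 4.00, 4.23 and 4.82 against a limit of 5. Those of Dhx58, Ifit1, Usp18 and Eif2ak2 lay past it. So did a peak of most genes: 27 of the 31 members and 10353 of all 10645 genes with a control peak still had one. Xaf1, which had an RA peak, also fell short. Its only control peak had the same 14 fragments, fold of 3.84 and IgG level of 2.86 as the Oasl1 peak. Of the control peaks left after this step, 76.5% of the members' had an RA peak within 5 kb, beside 71.6% of all.

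The Dhx58 peak, in intron 4 on chromosome 11 from 100702567 to 100702937, had 33 fragments at the summit and a fold of 6.04. Its rescaled values were 23.5 fragments and a -log10 p of 12.8, and the nearest RA peak lay 9129 bp away. The Ifit1 peak, on chromosome 19 from 34640582 to 34640859, had 30 fragments, a fold of 6.33 and a rescaled value of 12.5. The Usp18 promoter peak, on chromosome 6 from 121245339 to 121246124, had 34 fragments, a fold of 4.32 and a rescaled value of 9.73. Eif2ak2 (PKR), the kinase that stops translation on double-stranded RNA, was marked on chromosome 17 from 78882253 to 78882540, with 20 fragments, a fold of 5.37 and a rescaled value of 8.25. With 1 pool per condition, depth, the efficiency of the precipitation and RA cannot be told apart at any of the 7 genes.

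RARα was called at few interferon-stimulated genes. In the control list 4 of the 40 had a peak (10%, 3.96 to 23.1), beside 7.18% of all genes, and with RA 1 had one (2.50%, 0.443 to 12.9), beside 3.19%. Both shares are near those of all genes. The 4 genes rest on 3 peaks, of which 2 were shared by Tap1, Psmb9 and Psmb8.

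The stronger of these, on chromosome 17 from 34162523 to 34163340, had 37 fragments at the summit and a fold of 7.64 over IgG. The second, from 34164128 to 34164398 in a SINE repeat, had 19 fragments and a fold of 3.35. Each was annotated with 13 genes. They lay 18690 and 17632 bp from Psmb9, whereas the nearest gene was H2-DMb1, an MHC class II chaperone subunit, at 2294 and 3899 bp. BATF control peaks were 7749 and 6691 bp away, and no RARα peak with RA lay within 165391 bp.

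The third RARα control peak was at Isg20, a 3′ to 5′ exonuclease that degrades RNA. It lay on chromosome 7 from 78910979 to 78911217, with 9 fragments, a fold of 2.58 and a -log10 p of 3.09, just past the RARα cutoff of 0.001. The peak overlaps the neighbouring gene Aen and lay 2179 bp from Isg20 and 1162 bp from a BATF control peak. Isg20 was thus the only member with RARα and BATF peaks of the control within 5 kb of each other. Counted by peaks, 1 of the members' 3 RARα control peaks had a BATF peak that near (33.3%, 6.15 to 79.2), beside 61.9% over the whole list. With 3 peaks the interval includes the share of the whole list. The BATF peak at the start of Isg20, from 78913535 to 78914313, had 44 fragments at the summit and a fold of 5.56 in the control, and 26 fragments and 4.47 with RA.

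With RA, the single RARα peak was at Trim30a, a TRIM-family gene that restrains TLR signalling. It lay on chromosome 7 from 104467109 to 104467401 in a LINE repeat, 1916 bp from the gene, with 11 fragments, a fold of 3.03 and a -log10 p of 4.21. No BATF peak with RA lay within 151221 bp, while 16.4% of all RARα peaks with RA had one within 5 kb. Trim30a also had a BATF control peak of fold 2.77, the lowest of the members in that list, over an IgG level of 9.00.

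The other genes of the interferon pathway were read from a list of 20 receptors, kinases, factors, sensors, inhibitors and the ligand Ifnb1. BATF peaks were assigned to 18 of them in the control, beside 48.6% of all genes, and to 16 with RA, beside 38.2%. Mavs and Ifnb1 had none in either list, and Stat2 and Irf1, factors that act directly on the members, had a promoter peak in the control alone (folds 5.93 and 6.87). RARα control peaks were assigned to 9 of the 20, beside 7.18% of all genes, and RARα peaks with RA to 1, Ifngr1, beside 3.19%.

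The 9 genes were the receptor genes Ifnar1, Ifnar2, Ifngr1 and Ifngr2, the kinase genes Jak1, Jak2 and Tyk2, Irf8, and the inhibitor Socs1. The highest-fold RARα control peaks of Ifngr1, Socs1, Tyk2, Irf8 and Jak2 were intergenic, 86792, 58273, 29763, 20734 and 14735 bp from these genes. Of the highest-fold peaks only that of Jak1, of fold 2.85, lay within its gene. A count within 10 kb is not given for this list, so the share includes distant peaks. Ifnar1 and Ifngr2 shared an intergenic RARα peak of fold 9.73 on chromosome 16 from 91533087 to 91534413, 22564 and 12646 bp from the genes. At Ifnar2 a RARα peak of fold 4.12 lay 5804 bp from the gene, within the BATF site of highest fold among these 20 genes, 52.4 in the control and 52.9 with RA. The next highest BATF control folds were 14.5 for Socs1, 57895 bp from the gene, and 10.2 at the promoter of Jak1. No member of the interferon-stimulated list had a BATF site as strong as that of Ifnar2.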

How the data were processed

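Paired-end reads had been aligned by the authors with Bowtie2 to mm10 and freed of duplicates. Peaks were called with MACS 2.2.7.1 at a p-value of 0.001 (RARα) or 1e-05 (BATF). In the deposited files the pileup is a signal, the fragments at the summit, scaled by the peak caller by 0.988 in the BATF control list alone, which was undone here. The deposited fold enrichment is a ratio, pileup plus 1 over local IgG level plus 1. The authors' p-values and q-values are on the -log10 scale. The headers say that q-values were not calculated, although the column holds values.

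The members and lists were chosen with earlier results of these data known. Values are given for members with a RARα peak, the 12 with the highest BATF control fold, those with BATF peaks in 1 condition, and those with a pair differing by 1.5 times. Gene positions came from RefSeq (GRCm38.p6), and 99.5% of the names in the lists were matched. Peaks of both conditions were paired within 5 kb by nearest midpoint. Depth ranged from 16424269 to 23110180 fragments. Overlap and rescaling steps were tested on simulated data, the rescaling at a fixed IgG level. Calls close to the cutoff were not checked apart from the others. Alternatives were stricter thresholds, other gene assignments, merged peaks, overlap of at least 1 bp, and control counts and IgG levels multiplied by the ratio of the pool sizes. Promoter motifs were not analysed here. The tools were scipy 1.17.1, pandas 2.3.3, matplotlib 3.10.9 and numpy 2.4.6, run under Python 3.11.15.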

Additional observations from a re-analysis of the deposited data

How the results depend on the processing

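No paired analysis was possible because each condition has only the list of its pool. Rescaling control counts by the ratio of the pool sizes, counting any peak within 10 kb, and fragments divided by pool size were added after the data were seen. Of 79 values recomputed, 53 stayed within 1.5 times the count or within the 95% interval, and 26 moved, as follows. Keeping peaks within 10 kb of the gene, or promoter peaks, left 1 member and 1 peak in the RARα control list, and any peak within 10 kb also gave 1 member. The RARα peak with RA was lost (0 members, 0 peaks) with p of at most 1e-05, with q of at most 0.05 and with a fold of at least 5. The Isg20 site of RARα beside BATF was lost (0 genes) with those 3 limits and with an overlap of 1 bp. A fold of at least 5 left 1 RARα control peak, 32 BATF control peaks (median 6.44), and 15 BATF peaks with RA over 15 members (median 6.6). With that limit on both BATF lists, 46.9% of the control peaks were kept with RA. The strongest 9899 control peaks held 32 member peaks, of which 87.5% were kept, and the promoter class alone held 39. An overlap of 1 bp lowered the kept share to 49.2%, while 8605 of all 15812 control peaks had a paired RA peak that overlapped. For the 46.9% and the 87.5% no share over all peaks is given. Stricter limits leave fewer peaks by their construction, and the cause was not tested otherwise. RARα peaks of 9 to 11 fragments are at the limit of the depth.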

Other observations

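Relatives of the members in the same gene families were looked up after the results were seen, by symbol. Of 29 protein-coding relatives in the Gbp, Ifit, Oas, Parp and Trim30 families, 19 were named by a BATF control peak, beside 48.6% of all genes, and 14 by a BATF peak with RA, beside 38.2%. The guanylate-binding genes of chromosome 5 were named by stronger BATF control sites than any member but Sp100, but these sites were intergenic and named several genes. For Gbp4, Gbp8 and Gbp9 the highest fold was 17.5 at a site that named 4 genes, 52869, 8420 and 13566 bp away. For Gbp10 it was 17.2, at 65892 bp. The highest fold named for Gbp6 was 21.3 in the control (236 fragments) and 20.4 with RA (166 fragments), at an intergenic site that named 3 genes and lay 57541 bp from Gbp6. Gbp6 also had a RARα control peak at its promoter, with 10 fragments and a fold of 2.83.

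In the Parp family, Parp1, a DNA damage sensor, had a BATF promoter peak of fold 11.8 in the control and 8.26 with RA. Parp10 had 2 control peaks, up to a fold of 7.66, and none with RA. A RARα peak named for Trim30b and annotated with 7 genes was called in both conditions. It had a fold of 5.48 (48 fragments) in the control and 4.56 (35 fragments) with RA, and was intergenic, 64411 bp from Trim30b. Of the 6 relatives in the Oas family, 1 had a BATF peak (Oas1c, fold 4.74 in the control), and of the 3 in the Ifit family 1 did (Ifit1bl2, whose peak is that of Ifit1).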
